A study of Mus musculus with 2 samples.

Results

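Expression of 9 genes of the epidermal growth factor (EGF) family was described across the cells of injured mouse kidneys. They are 5 ligand genes (Egf, Hbegf, Areg, Tgfa and Btc) and the 4 ErbB receptor genes (Egfr, Erbb2, Erbb3 and Erbb4), out of 32285 genes counted. The family was chosen because Egf was much lower in the distal tubule of 1 of the libraries, so the level of Egf there is a description and supports nothing. The study compared injured kidneys 14 days after clamping of 1 renal artery, ischaemia and reperfusion, and both groups received 4 tamoxifen injections. Control mice carried no Cre (genotype Cre-). Haplodeficient mice had the genotype Cdh5-CreERT2; Phd3f/+, that is 1 floxed allele of Phd3, the oxygen-sensing prolyl hydroxylase encoded by Egln3, and a tamoxifen-inducible Cre driven by the promoter of the endothelial cadherin gene Cdh5. Both libraries are labelled batch 1. Whether control mice carried the floxed allele, and how many animals went into a library, is not given in the sources used here. Each group is a single library. No difference therefore has a replicate check, no test between groups was possible, and the 95% intervals given cover counting error only.

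EGF-family ligands are made as membrane-anchored precursors and are released by metalloproteases of the ADAM family. Egf, Areg and Tgfa proteins bind the receptor EGFR, while the products of Hbegf and Btc bind EGFR and ERBB4. ERBB2 has no known ligand and signals as the partner of the other receptors, and ERBB3 has little kinase activity of its own and binds neuregulins. In the kidney, the thick ascending limb and the distal convoluted tubule are the known sources of EGF, which reaches the urine and is also linked to magnesium uptake in the distal tubule. EGFR signalling is known to take part in tubule regeneration after injury.

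The control library had 8737 retained cells with a median of 8762 unique molecular identifiers (UMIs) and the haplodeficient library 9222 cells with a median of 5471.5. The libraries shared 28 cell barcodes. The median mitochondrial share of a cell's UMIs was 10.2% (control) and 2.69% (haplodeficient). It was 11.1% and 4.72% in thick ascending limb-like and 14.1% and 5.88% in distal convoluted tubule-like cells, control first. Egf, Hbegf and Erbb4 are also read by this share in those segments. Proximal tubule-like cells were 36.1% of control and 4.53% of haplodeficient cells, and T-cell-like cells 1.93% and 10.7%. Cells were grouped by clustering that left out the 9 members and 49 further genes of the pathway. Levels are UMIs summed over the cells of a group and library, scaled as CPM, that is UMIs per 1e6 summed UMIs, in 18 cell groups with at least 50 cells in each library. Of these, 14 carry a cell type name from marker genes ("-like") and 4 are clusters called by their leading gene. The Slc26a4-led cells were deep cells with all 9 intercalated cell markers and markers of a further class. The Fam181b-led cells passed all 10 endothelial markers, the Siglecf-led cells 5 of 6 neutrophil markers and the Wnt16-led cells 4 of 9 pericyte or smooth muscle markers. They stayed unnamed because their leading genes held a marker of another class and none of these lists. That marker was Aqp1 (descending thin limb) in Fam181b-led, Ptgs2 (macula densa) in Siglecf-led and Wt1 (podocyte) in Wnt16-led cells. This is a naming rule and does not show that the cells belong to that other class. The targeted gene, Egln3, was at 22.7 CPM (15.5 to 32.0, on 32 UMIs) in control and 23.9 CPM (19.1 to 29.7, on 83 UMIs) in haplodeficient endothelial-like cells. Its ratio was 1.06 (0.695 to 1.64). In Fam181b-led cells it was at 26.5 CPM (17.3 to 38.8, on 26 UMIs) and 15.3 CPM (10.1 to 22.3, on 27 UMIs), with 0.578 (0.325 to 1.03) as the ratio. Neither value is a check of the labels, since nothing in the sources used here says whether the 3′ end of the gene is still transcribed from the deleted copy.

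Comparison of a gene in a cell group required 20 UMIs over the libraries and an average level of 10 CPM or more. It is called past the fold when the log2 ratio of CPM + 5, haplodeficient over control, was at least 1 in size and the intervals of the levels did not overlap. Of the 162 pairs of a member and a cell group, 78 could be compared and 8 were past the fold, 3 of them Egf. Over all genes and cell groups, 1.93% of the compared pairs were past the fold in either direction. Without Egf, which chose the family, 5 of 75 were.

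The promoter windows of the ligands whose levels stood furthest apart in opposite directions, Egf and Areg, are shown as RefSeq gives them for GRCm38.p6, 250 bases upstream of the start site and 5′ to 3′ on the gene's strand. Capitals mark a TATA box (TATAAA) or a full cyclic AMP response element (TGACGTCA), both searched on both strands. The window at chr3:129755323-129755572 (minus strand) is that of the Egf start nearest the annotated gene start, and the one at chr5:91139349-91139598 (plus strand) is that of Areg.
Egf: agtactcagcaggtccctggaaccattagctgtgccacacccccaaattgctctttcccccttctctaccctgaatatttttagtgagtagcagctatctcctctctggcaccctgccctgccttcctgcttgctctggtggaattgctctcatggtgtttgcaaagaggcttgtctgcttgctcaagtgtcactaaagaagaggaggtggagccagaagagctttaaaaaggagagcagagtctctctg
Areg: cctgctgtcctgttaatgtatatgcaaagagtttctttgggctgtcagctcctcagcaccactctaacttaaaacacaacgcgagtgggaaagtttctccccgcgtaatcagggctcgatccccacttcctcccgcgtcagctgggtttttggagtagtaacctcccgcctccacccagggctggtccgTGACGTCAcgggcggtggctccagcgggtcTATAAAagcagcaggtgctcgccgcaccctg
The Areg window held each motif, and the Egf window neither. Of the 32851 promoter windows of that length in the RefSeq table, 12.4% held TATAAA and 1.55% held TGACGTCA. Windows were read for 7 members (8 start sites), and in the other 5 members and the further Egf window neither motif was found. A match is a match of letters only, and its absence says nothing about a factor. The windows for Hbegf and Erbb3 were not used here.

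Egf (ENSMUSG00000028017, chromosome 3, 129677565 to 129755316, minus strand, GENCODE M21 on GRCm38), the founding ligand of the family, was a transcript of the thick ascending limb and the distal convoluted tubule in both libraries. Thick ascending limb-like cells held 86.7% of all Egf UMIs in control and 94.6% in haplodeficient cells. In these cells Egf was at 1209 CPM (1191 to 1226, on 18333 UMIs) in control and 342 CPM (334 to 350.4, on 6884 UMIs) in haplodeficient cells. The CPM ratio was 0.283 (0.275 to 0.291) and the log2 ratio -1.81. In distal convoluted tubule-like cells, the contrast that chose the family, Egf was at 283 CPM (271 to 294, on 2272 UMIs) and 38.9 CPM (34.1 to 44.3, on 232 UMIs), a ratio of 0.138 and a log2 ratio of -2.71. Lower and past the fold in the haplodeficient library were 0.719% of all compared genes in thick ascending limb-like and 0.772% in distal convoluted tubule-like cells. In both libraries these 2 segments stood above the other 16 cell groups, and their own intervals did not overlap. The next in order, Siglecf-led cells at 39.9 CPM (10.9 to 102) on 4 UMIs and endothelial-like cells in the control, overlapped.

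Egf was spread unevenly over the cells. The 10% of thick ascending limb-like cells with most Egf UMIs held 64.0% of them in control and 76.6% in the haplodeficient library. Among thick ascending limb-like cells, 275 of 1008 control and 100 of 1120 haplodeficient cells had over 1000 CPM of Egf. The highest cell reached 18584 CPM in the control and 6934 CPM in the haplodeficient library. Among distal convoluted tubule-like cells 68 of 581 control and 3 of 365 haplodeficient cells were above 1000 CPM. After thinning each cell to 1000 UMIs, 32.8% (29.8 to 35.9) of 954 control and 16.1% (13.9 to 18.4) of 1059 haplodeficient thick ascending limb-like cells had an Egf UMI, against 55.3% and 44.2% unthinned. In distal convoluted tubule-like cells the thinned shares were 17.5% (14.4 to 20.9) and 1.94% (0.783 to 3.95), against 38.4% and 16.4%. In macrophage-like cells, which should lack the gene, they were 0.538% and 0.0823% thinned and 3.31% and 1.19% unthinned, so both segments stood above this background in both libraries. The median depths were 10994.5 and 9372 UMIs in thick ascending limb-like, 11060 and 9918 in distal convoluted tubule-like and 4787 and 5330 in macrophage-like cells, control first. Free RNA, read from barcodes of at most 100 UMIs, held Egf at 167 CPM (control) and 48.01 CPM (haplodeficient).

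**Figure D1:**
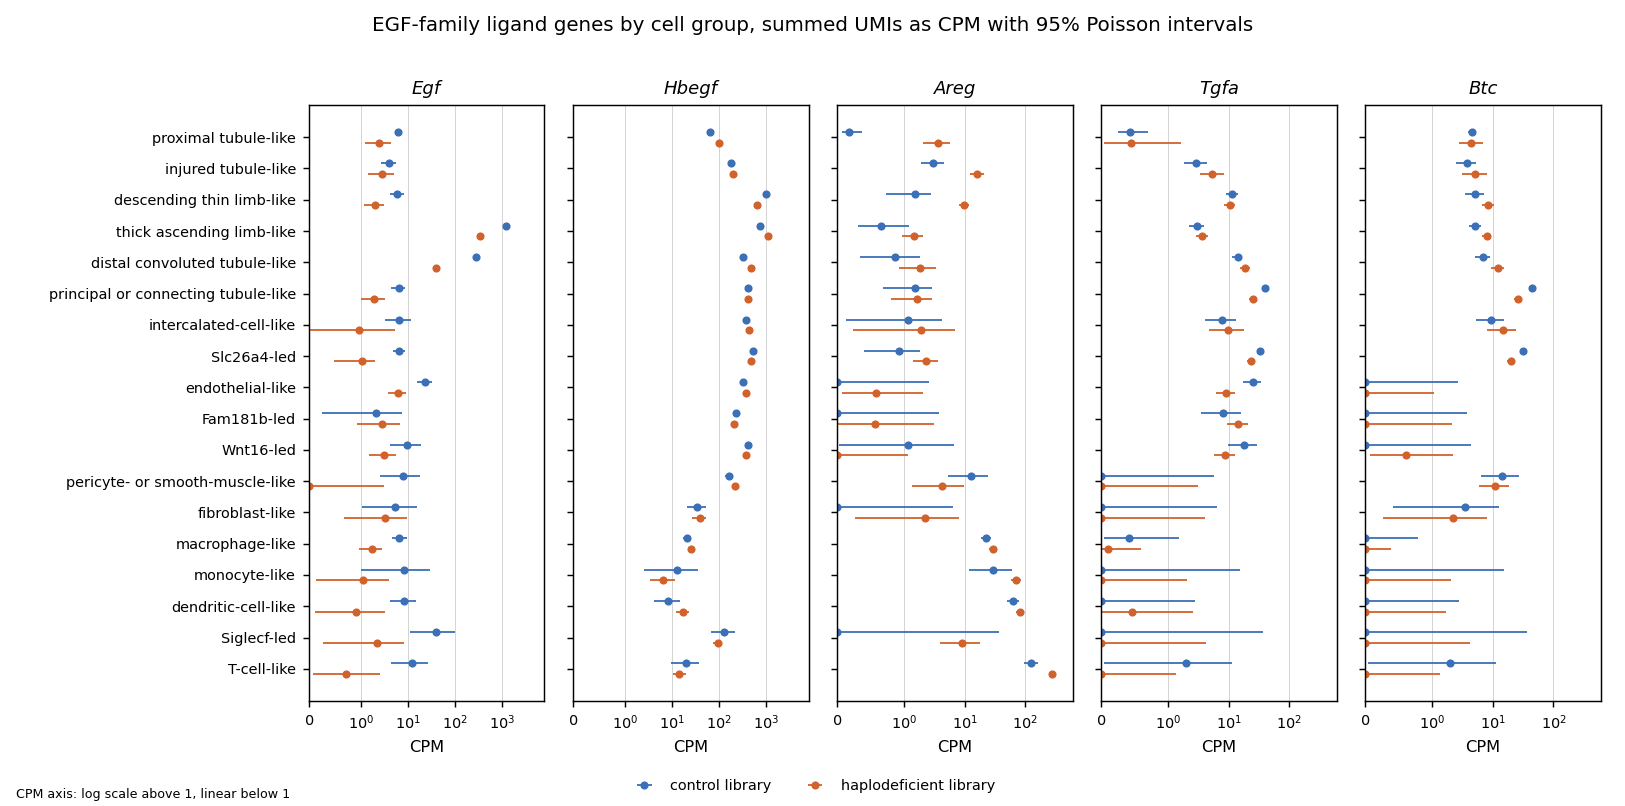
CPM of the 5 ligand genes (x axes, log scale above 1 and linear below) in the 18 cell groups (y axis). Points are the control (blue) and haplodeficient (orange) library and bars their 95% Poisson intervals. Egf stands at 283 CPM or more in 2 control cell groups, Hbegf is spread over tubule and vessel cells, and Areg lies highest of these groups in T-cell-like cells, at 126 and 278 CPM.

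Each of these segments was made of 2 clusters that differed in Egf, and the make-up differed between libraries. The distal convoluted tubule-like cells comprised a Slc12a3-led and an Il1f6-led cluster. Leading genes of the Slc12a3-led cluster included Pvalb, a gene of the early part of the segment, and the connecting tubule markers Calb1 and S100g. The Slc12a3-led cluster held 34.8% (202 cells) of the segment in the control and 5.48% (20 cells) in the haplodeficient library. In it Egf was at 796 CPM (762 to 832) and 415 CPM (345 to 496), a ratio of 0.522 (0.431 to 0.626). In the Il1f6-led cluster, of 379 and 345 cells, Egf was at 40.8 CPM (35.6 to 46.5) and 19.4 CPM (15.98 to 23.4), a ratio of 0.476 (0.375 to 0.601). Egf was thus lower in the haplodeficient library in each cluster, by less than in the segment as a whole. Reclustering split the segment into 9 subclusters. With the 7 that could be used given the same weights in each library, its log2 ratio was -0.36, and in the Il1f6-led cluster alone it was -0.91. The thick ascending limb-like cells comprised an Egf-led cluster with high Slc12a1 and Umod and a Gabrp-led cluster. In the Egf-led cluster, of 545 and 496 cells, Egf was at 1949 CPM (1920.0 to 1977) and 518 CPM (506 to 531), a ratio of 0.266 (0.258 to 0.273). In the Gabrp-led cluster, of 463 and 624 cells, it was at 96.7 CPM (89.0 to 105) and 39.1 CPM (34.8 to 43.9), a ratio of 0.405 (0.350 to 0.467).

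**Figure D2:**
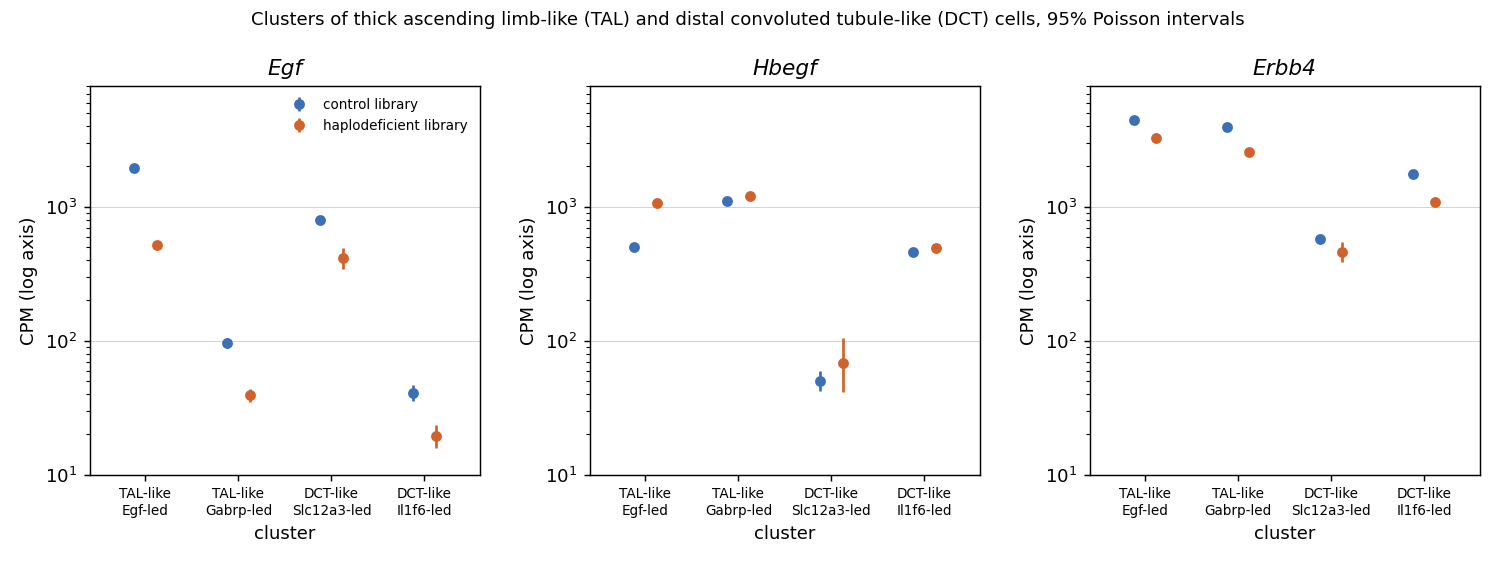
CPM (y axes, log scale) of Egf, Hbegf and Erbb4 in the 2 clusters of thick ascending limb-like (TAL) and the 2 of distal convoluted tubule-like (DCT) cells. Points are the control (blue) and haplodeficient (orange) library and bars their 95% Poisson intervals. Egf and Erbb4 lie lower in the haplodeficient library in all 4 clusters, and Hbegf does in none, with 498 against 1071 CPM in the Egf-led cluster.

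The Egf-led cells also differed in mitochondrial share, with a median of 16.9% in control and 4.62% in haplodeficient cells, and the Slc12a3-led cells had 25.1% and 16.2%. Egf was therefore also read in cells of like mitochondrial share. Depth was not matched in these ranges, which were used for Hbegf and Erbb4 too. In thick ascending limb-like cells median UMIs were 10945 in control and 3282.5 in haplodeficient cells from 10% to 25%. Above 25% they were 9450 and 1055, and below 5% 9371.5 and 14725. Distal convoluted tubule-like cells below 5% had 2296 and 14215.5. In thick ascending limb-like cells with under 5% mitochondrial UMIs the haplodeficient library was higher, at 268 CPM (260 to 277, 621 cells) against 139 CPM (123 to 158, 134 cells). The same was so from 5% to 10%, at 484 CPM (466 to 502, 368 cells) against 129 CPM (120 to 137, 336 cells). From 10% to 25% it was lower, at 701 CPM (634 to 774, 102 cells) against 1906 CPM (1865 to 1948, 331 cells). Above 25% it was lower as well, at 1160.3 CPM (899 to 1474, 29 cells) against 4576 CPM (4481 to 4673, 207 cells). The direction of the Egf difference in this segment thus depended on the mitochondrial share of the cells compared, and its log2 ratio was 1.301 over cells under 10%. Umod, the uromodulin gene of the same segment, was at 5819 and 7885 CPM below 5% and at 23096 and 11724 CPM above 25%, control first. In distal convoluted tubule-like cells Egf was lower in the haplodeficient library in each of the 4 ranges. It was at 46.1 against 10.2 CPM below 5%, at 44.5 against 31.8 CPM from 5% to 10% with overlapping intervals, at 393 against 195 CPM from 10% to 25%, and at 716 against 45.3 CPM above 25%. The last haplodeficient value rests on 2 UMIs in 12 cells. Over cells under 10% the log2 ratio of the segment was -0.98, below the fold. The part of the mitochondrial share, and of the make-up of the segments, in the Egf difference was not tested further.

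**Figure D3:**
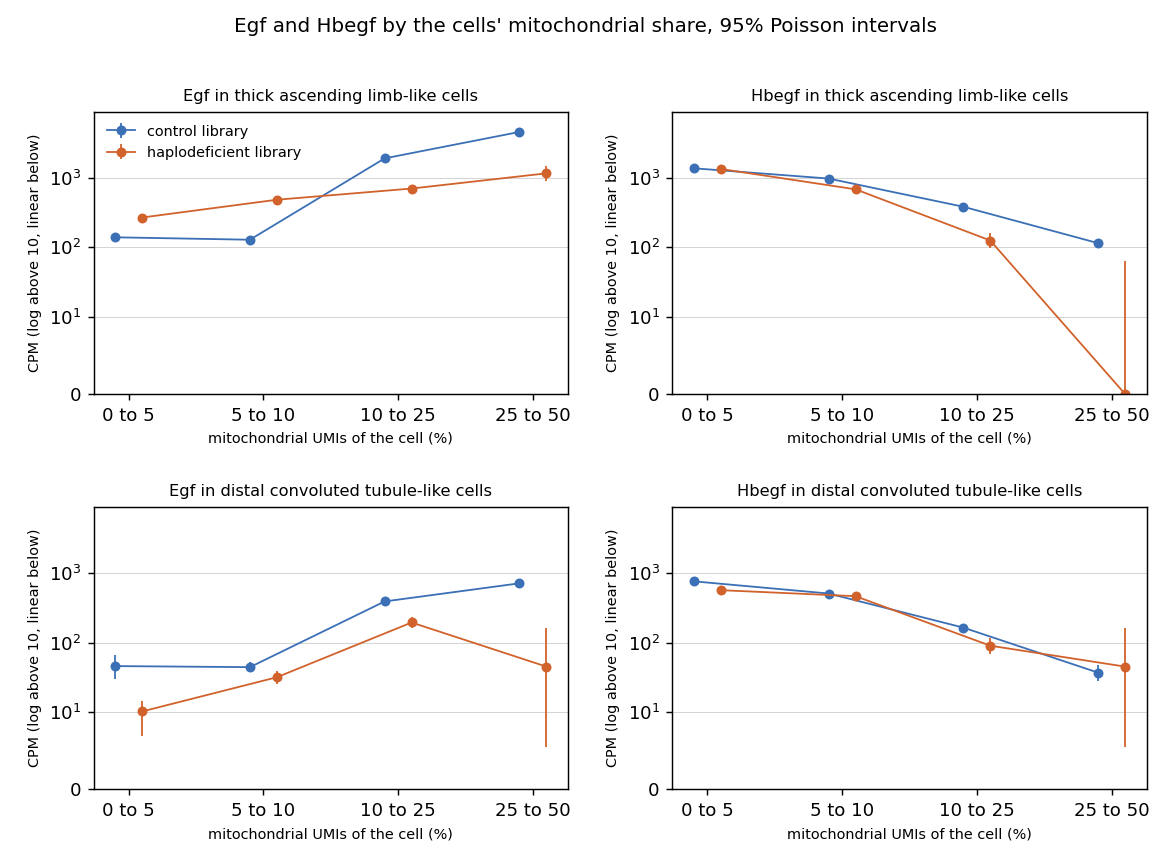
CPM of Egf (left) and Hbegf (right) on y axes that are logarithmic above 10 and linear below, by the mitochondrial share of the cell (x axes), in thick ascending limb-like (top) and distal convoluted tubule-like cells (bottom). Points are the control (blue) and haplodeficient (orange) library, bars are 95% Poisson intervals. The Egf lines cross in the thick ascending limb-like cells, from 139 and 268 CPM below 5% to 4576 and 1160.3 CPM above 25%.

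Outside these segments Egf was low. In endothelial-like cells it was at 22.7 CPM (15.5 to 32.0) on 32 UMIs in 13 control cells and 6.06 CPM (3.75 to 9.26) on 21 UMIs in 13 haplodeficient cells, a log2 ratio of -1.32. It was past the fold there, as were 1.29% of all compared genes in the same direction, and free RNA accounts for an estimated 31.7% and 22.2% of these UMIs. Tubule transport genes were lower in the haplodeficient library in those cells as well. Fxyd2, a sodium pump regulator, was at 115 and 38.1 CPM, Umod at 95.6 and 43.8 CPM, and Slc12a1, the thick ascending limb sodium-potassium-chloride cotransporter, at 55.9 and 14.1 CPM. With likely doublets kept, the Egf log2 ratio in endothelial-like cells was -0.14. Podocyte-like cells, too few to compare, had 22 Egf UMIs in 27 haplodeficient cells (96.2 CPM, 60.3 to 146) and 0 in 3 control cells.

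Hbegf (ENSMUSG00000024486, chromosome 18, 36504927 to 36515805, minus strand), which encodes heparin-binding EGF-like growth factor, was read in tubule and vessel cells of both libraries and was past the fold in 0 of the 17 cell groups in which it could be compared. It was highest in the descending thin limb and the thick ascending limb, in the opposite order in each library. In descending thin limb-like cells it was at 981 CPM (957 to 1006) in control and 653 CPM (637 to 669) in haplodeficient cells, a ratio of 0.665 (0.642 to 0.689). In thick ascending limb-like cells it was at 743 CPM (729.5 to 757) and 1123 CPM (1109 to 1138), a ratio of 1.51 (1.48 to 1.55). For distal convoluted tubule-like cells the ratio was 1.45 (1.37 to 1.53), from 327 to 473 CPM, and in proximal tubule-like cells 1.57 (1.41 to 1.73), from 65.1 to 102 CPM. Both of these directions turned in cells of low mitochondrial share, whose median was 14.1% and 5.88% in distal convoluted tubule-like and 22.4% and 6.59% in proximal tubule-like cells, control first. Under 10% the proximal tubule log2 ratio of 0.61 became -0.15. In the distal convoluted tubule Hbegf was lower in the haplodeficient library in 3 of 4 ranges, at 570.2 against 764 CPM below 5%, at 467 against 510.4 CPM from 5% to 10% with overlapping intervals, and at 90.5 against 165 CPM from 10% to 25%. Above 25% it was at 45.3 CPM, on 2 UMIs, against 37.1 CPM. The log2 ratio of that segment, 0.53, was also below 0 with subclusters weighted alike, and -0.16 was the lowest value of any alternative. The part of the mitochondrial share in these differences was not tested. In principal or connecting tubule-like cells Hbegf differed by less than counting error, at 420 and 411 CPM (ratio 0.979, 0.928 to 1.03), as it was in intercalated-cell-like cells, at 376 and 424 CPM (1.13, 0.996 to 1.27).

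The Hbegf difference in the thick ascending limb also varied with the cells compared. In the Egf-led cluster Hbegf was at 498 and 1071 CPM (ratio 2.15, 2.08 to 2.22) and in the Gabrp-led cluster at 1111 and 1214 CPM (ratio 1.09, 1.06 to 1.13). By mitochondrial share it was at 1372 and 1342 CPM below 5%, with overlapping intervals. It was lower in the haplodeficient library from 5% to 10%, at 683 against 977 CPM, and from 10% to 25%, at 125 against 384 CPM. Above 25% it was at 115 CPM in the control and had 0 UMIs in the 29 haplodeficient cells, which allows up to 63.9 CPM. Hbegf was thus higher in the haplodeficient library over the whole segment and in none of the 4 ranges, while 621 haplodeficient against 134 control cells lay in the lowest range, where it was highest. Among vessel cells Hbegf was highest in an Ehd3-led endothelial cluster with Kdr, at 712 and 705 CPM, against 113 and 109 CPM in the Plvap-led capillary cluster. In macrophage-like cells it was at 21.2 and 24.8 CPM.

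Areg (ENSMUSG00000029378, chromosome 5, 91139599 to 91148432, plus strand), which encodes amphiregulin, was a leukocyte transcript in these kidneys. Among the 18 compared cell groups it was highest in T-cell-like cells, at 126 CPM (96.6 to 161, on 63 UMIs in 14 cells) in control and 278 CPM (259 to 299, on 776 UMIs in 129 cells) in haplodeficient cells. The ratio was 2.22 (1.71 to 2.91) and the log2 ratio 1.12, past the fold, as were 0.84% of all compared genes in that direction. After thinning, 5.45% of control and 9.07% of haplodeficient T-cell-like cells had an Areg UMI, against 8.28% and 13.1% unthinned. The ratio depended on how cells were weighted. The log2 ratio was 0.75 with every cell weighted alike and 0.91 with likely doublets kept, both below the fold. In a Tnfrsf4-led cluster with Cd4 and Ctla4, of 90 and 468 cells, Areg was at 232 CPM (176 to 301) and 456 CPM (421 to 494). In a Trdc-led cluster with Il17a, genes of gamma-delta T cells, it was at 60.8 CPM (22.3 to 132, on 6 UMIs) and 448 CPM (382 to 521). In the Cd8b1-led cluster it had 0 UMIs in 55 control and 401 haplodeficient cells, which allows up to 23.4 and 3.42 CPM. In the Tnfrsf4-led cluster Foxp3, a regulatory T cell gene, was at 53.0 CPM (28.2 to 90.6) and 40.5 CPM (30.4 to 52.9). It was found in 7.78% and 7.05% of the cells there. Of the type 2 innate lymphoid cell markers, also known in tissue regulatory T cells, Il1rl1 was at 48.9 and 112 CPM in that cluster. Gata3 was at 216 and 128 CPM, while Il13 and Il5 had 3 or fewer UMIs in either library. Their part in the Areg difference was not tested.

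Among myeloid cells Areg was at 63.3 and 81.7 CPM in dendritic-cell-like (ratio 1.29, 0.991 to 1.69), at 22.7 and 28.8 CPM in macrophage-like (ratio 1.27) and at 29.1 and 70.4 CPM in monocyte-like cells (2.41, 1.14 to 6.12, on 7 and 129 UMIs). The monocyte difference was over the fold in size, but the intervals of the levels overlapped. Its dendritic cell UMIs lay in the Retnla-led cluster, and the Xcr1-led cluster had 0 in both libraries. In tubule cells Areg was too low to compare by the minimum, but 3 ratios lay well above 1. It was at 3.03 CPM (1.92 to 4.55) and 16.1 CPM (12.4 to 20.6) in injured tubule-like, at 1.53 CPM (0.734 to 2.81) and 9.76 CPM (7.89 to 11.9) in descending thin limb-like, and at 0.178 CPM (0.0717 to 0.368) and 3.55 CPM (2.03 to 5.77) in proximal tubule-like cells. The last rests on 7 UMIs in 5 cells and 16 UMIs in 3 cells. In injured tubule-like cells 15 of the 63 haplodeficient UMIs lay in 1 cell. Free RNA, which held Areg at 1.89 CPM (control) and 8.55 CPM (haplodeficient), accounts for an estimated 3.89% and 1.67% of the UMIs in injured tubule-like, 9.47% and 5.07% in descending thin limb-like and 28.8% and 6.36% in proximal tubule-like cells. Urothelium-like cells, too few to compare, had 47 Areg UMIs in 17 control cells (225 CPM, 165 to 299) and 2 in 25 haplodeficient cells (8.46 CPM, 1.03 to 30.6), so the control level lay above that of the T-cell-like cells.

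Tgfa (ENSMUSG00000029999, chromosome 6, 86195223 to 86275719, plus strand), which encodes transforming growth factor alpha, and Btc (ENSMUSG00000082361, chromosome 5, 91357261 to 91402994, minus strand), which encodes betacellulin, were both highest in principal or connecting tubule-like cells, followed by the Slc26a4-led cells. In principal or connecting tubule-like cells Tgfa was at 39.8 CPM (34.9 to 45.1) in control and 24.9 CPM (21.3 to 28.9) in haplodeficient cells, a ratio of 0.626 (0.511 to 0.765). Btc was at 44.2 CPM (39.1 to 49.9) and 25.6 CPM (21.96 to 29.7) there, a ratio of 0.579 (0.476 to 0.703). Neither was past the fold. Within each of the 2 clusters of that class the Btc intervals overlapped, at 83.2 and 70.0 CPM in the Aqp2-led cluster (158 and 11 cells) and at 24.3 and 24.8 CPM in the Spink8-led cluster (354 and 613 cells). Tgfa was at 40.6 and 24.8 CPM in the Spink8-led cluster. Tgfa was also read in endothelial-like cells, at 24.8 CPM (17.3 to 34.5, on 35 UMIs) in control and 8.94 CPM (6.07 to 12.7, on 31 UMIs) in haplodeficient cells. Its log2 ratio of -1.10 was past the fold, but it ran from -0.45, with likely doublets kept, to -1.37 over 14 alternatives. Btc had 0 UMIs in endothelial-like cells of either library.

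Of the receptors, Egfr (ENSMUSG00000020122, chromosome 11, 16752203 to 16918158, plus strand) was read in the tubule, in fibroblasts and in Wnt16-led cells. It was at 128 and 95.5 CPM in Wnt16-led cells, control first, and was past the fold in 0 of 11 cell groups. It was highest in injured tubule-like cells in the control, at 230.0 CPM (219 to 241), where the haplodeficient library had 152 CPM (140.2 to 165), a ratio of 0.661 (0.601 to 0.726). In proximal tubule-like cells the order was the other way, at 137 CPM (133 to 140.2) and 188 CPM (175 to 201), a ratio of 1.37 (1.28 to 1.48). It was lower in haplodeficient descending thin limb-like cells, at 163 against 110 CPM, and in principal or connecting tubule-like cells, at 129 against 90.9 CPM. In the 2 segments that held Egf it was at 60.3 and 45.0 CPM (thick ascending limb) and at 48.5 and 61.6 CPM (distal convoluted tubule), control first. With at most 25% and with under 10% mitochondrial UMIs the proximal tubule difference turned, to a lowest log2 ratio of -0.09, while those of injured tubule-like, descending thin limb-like and principal or connecting tubule-like cells kept their direction in each alternative that gave a value. In fibroblast-like cells, at 120 and 98.8 CPM, the intervals overlapped. Endothelial-like cells held 2 control and 10 haplodeficient UMIs, and macrophage-like cells 3.82 and 1.80 CPM.

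Erbb2 (ENSMUSG00000062312, chromosome 11, 98412470 to 98437716, plus strand) and Erbb3 (ENSMUSG00000018166, chromosome 10, 128567523 to 128589652, minus strand) were read all along the tubule, and both were past the fold in 0 of the cell groups compared (9 and 8). Erbb2 ran from 15.8 CPM in intercalated-cell-like to 38.8 CPM in thick ascending limb-like cells among the named tubule cell groups of the control. Its haplodeficient-to-control ratio was 1.22 (1.10 to 1.35) in the thick ascending limb and 1.01 (0.835 to 1.22) in the distal convoluted tubule. Erbb3 ran from 44.5 CPM in injured tubule-like to 73.9 CPM in descending thin limb-like cells, with ratios from 0.826 (0.731 to 0.933) in the latter to 1.18 (0.847 to 1.63) in intercalated-cell-like cells. The median log2 ratio was -0.07 for Erbb3 and 0.07 for Erbb2. Both were at or below 10.6 CPM in the control cell groups outside the tubule, the Slc26a4-led cells aside.

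Erbb4 (ENSMUSG00000062209, chromosome 1, 68032186 to 69108059, minus strand), a receptor for neuregulins, HB-EGF and betacellulin, was concentrated in the thick ascending limb, with 68.3% of its control and 76.3% of its haplodeficient UMIs. In thick ascending limb-like cells it was at 4243 CPM (4210.4 to 4276) in control and 3018 CPM (2994 to 3042) in haplodeficient cells, a ratio of 0.711 (0.703 to 0.719). In those of the distal convoluted tubule it was at 1385 CPM (1359 to 1411) and 1064 CPM (1038 to 1090.1), a ratio of 0.768 (0.745 to 0.792). In descending thin limb-like cells it was at 1407 CPM (1378 to 1436) and 618 CPM (602 to 633), a ratio of 0.439 (0.425 to 0.454) and a log2 ratio of -1.18, past the fold. Lower and past the fold were 0.742% of all genes compared there. The control levels of these cells and of distal convoluted tubule-like cells overlapped. The control cell with most held 808 of the 9196 Erbb4 UMIs of the descending thin limb, and over the alternatives the log2 ratio ran from -0.83, each cell weighted alike, to -1.29. Erbb4 was lower in the haplodeficient library in both clusters of the thick ascending limb (ratios 0.734 and 0.657) and of the distal convoluted tubule (0.801 and 0.621). It was also lower in all 4 ranges of mitochondrial share in the thick ascending limb, from 4835 against 3017 CPM below 5% to 3053 against 2459 CPM above 25%. The intervals overlapped in none of the 4. In the distal convoluted tubule this held in 3 of 4 ranges, and above 25% Erbb4 was higher, at 838 against 418 CPM, on 37 UMIs in 12 haplodeficient cells.

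The opposite order was seen in injured tubule-like cells, where Erbb4 was at 197 CPM (187 to 207) and 287 CPM (270.2 to 304), a ratio of 1.45 (1.35 to 1.57). In intercalated-cell-like cells it was at 66.0 CPM (54.4 to 79.4, on 113 UMIs) and 29.9 CPM (20.3 to 42.5, on 31 UMIs), a log2 ratio of -1.02 and past the fold, as were 1.29% of all genes compared there in that direction. Free RNA accounts for an estimated 16.5% and 24.6% of these UMIs, and the log2 ratio was -0.25 with at least 1000 UMIs per cell and -0.37 with at most 25% mitochondrial UMIs. In Fam181b-led cells Erbb4 was at 15.3 CPM (8.55 to 25.2) and 63.5 CPM (52.3 to 76.4), a log2 ratio of 1.76, past the fold, as were 0.596% of genes in that direction. These UMIs came from 3 control and 11 haplodeficient cells, and 73 of the 112 haplodeficient UMIs lay in 1 deep cell of 43847 UMIs that also had 18 UMIs of the tubule gene Slc12a1. Without the highest cell of each library Erbb4 was at 2.07 and 22.7 CPM, on 2 and 39 UMIs. Erbb4 was lower in the haplodeficient library in 11 of the 15 cell groups compared, with a median log2 ratio of -0.54. That median is the endothelial-like value, which kept its sign in 6 of 14 alternatives. Control levels were 14.9 CPM in endothelial-like, 15.1 CPM in macrophage-like, 14.9 CPM in dendritic-cell-like and 18.0 CPM in T-cell-like cells. Free RNA held Erbb4 at 322 CPM (control) and 389.5 CPM (haplodeficient), far above these levels. It was an estimated 4.30%, 4.27%, 1.96% and 4.07% of all control UMIs of these groups, in the same order. These groups are among the 11, and the free RNA share of their Erbb4 UMIs is not given here. Over the 18 cell groups the median of all compared genes ran from -0.07 to 0.19.

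**Figure D4:**
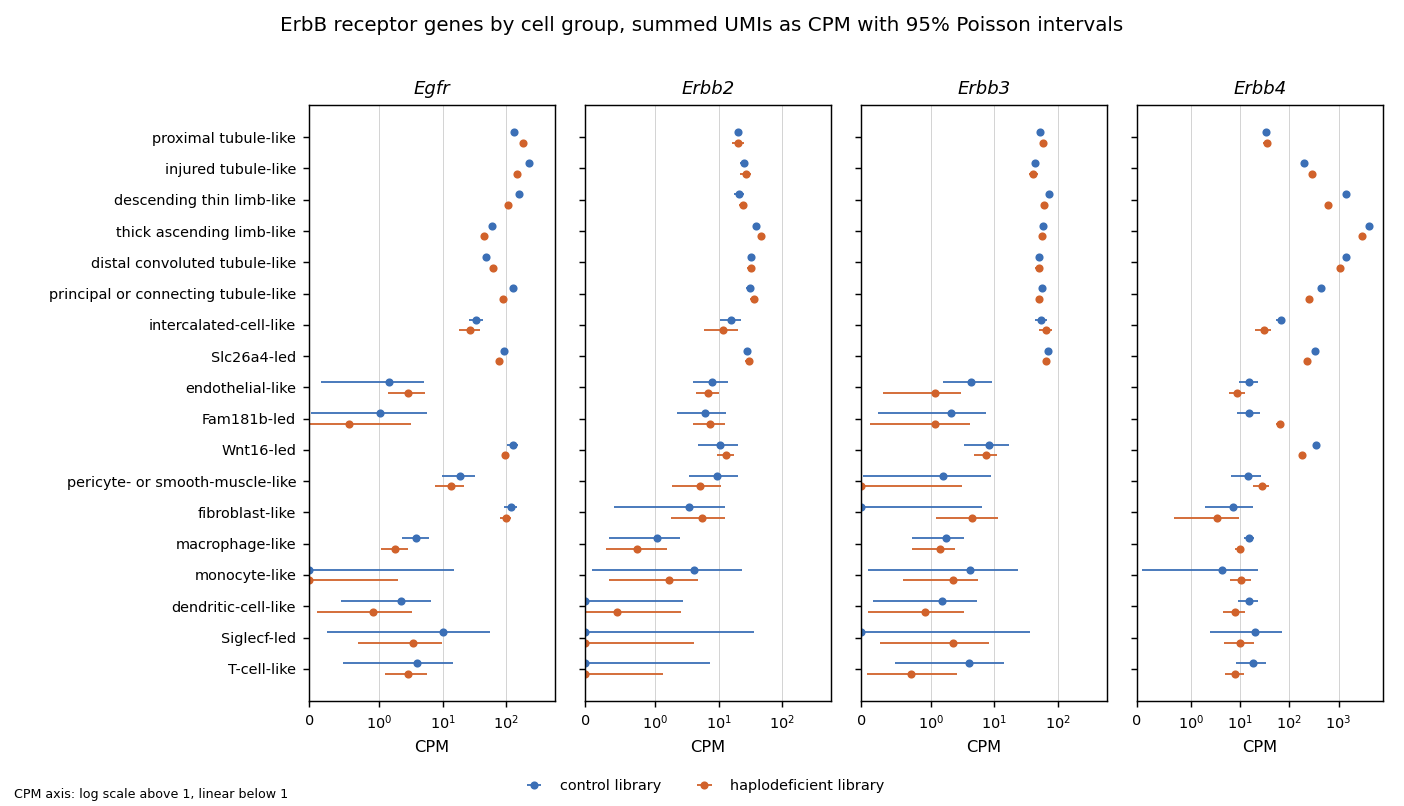
CPM of the 4 ErbB receptor genes (x axes, log scale above 1 and linear below) in the 18 cell groups (y axis). Points are the control (blue) and haplodeficient (orange) library and bars their 95% Poisson intervals. Erbb2 and Erbb3 lie along the whole tubule, Egfr is highest in injured or proximal tubule-like cells, and Erbb4 peaks in thick ascending limb-like cells at 4243 and 3018 CPM.

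**Figure D5:**
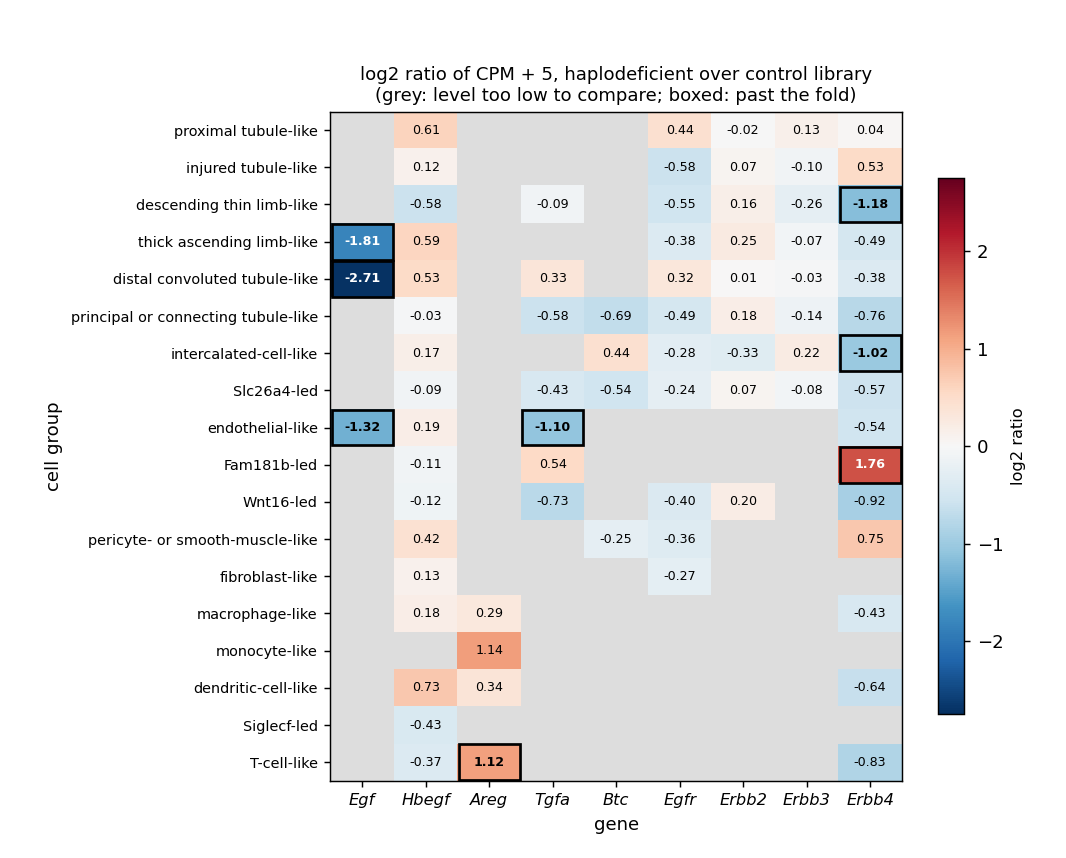
Log2 ratio of CPM + 5, haplodeficient over control library, for the 9 genes (x axis) in the 18 cell groups (y axis). Blue is lower and red higher in the haplodeficient library, grey marks pairs under the minimum level, and boxes mark the 8 pairs past the fold. Egf at -2.71 is the lowest value and Erbb4 in Fam181b-led cells at 1.76 the highest.

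The rest of the pathway was read from lists in the 3 cell groups where Egf was past the fold. Higher and past the fold were 0.442% of all genes compared in thick ascending limb-like, 0.772% in distal convoluted tubule-like and 0.592% in endothelial-like cells. Of the other EGF-family ligands, only Nrg1, a neuregulin that binds ERBB3 and ERBB4, could be compared in the distal segments. Nrg1 was level in distal convoluted tubule-like cells, at 174 and 173 CPM. It was lower in haplodeficient thick ascending limb-like cells, at 75.4 against 159 CPM, a log2 ratio of -1.03 and past the fold. Nrg1 was not read by mitochondrial share. In other cell groups where 1 gene of this list could be compared, that gene is not named here and may differ between groups. Such a gene was lower and past the fold in descending thin limb-like (-1.02) and injured tubule-like (-1.22) cells. The same held in intercalated-cell-like (-1.22), fibroblast-like (-2.77) and macrophage-like (-1.94) cells. For monocyte-like cells the value was past the fold in the other direction (2.73). Values short of the fold were -0.45 in principal or connecting tubule-like, -0.52 in Slc26a4-led, -0.35 in Wnt16-led and 0.64 in proximal tubule-like cells. The share of all genes past the fold is not given here for injured tubule-like, fibroblast-like, macrophage-like or monocyte-like cells. None of the list could be compared in endothelial-like cells. Of the genes for ligand shedding, such as Adam10 and Adam17, 0 of 6 were past the fold in either distal segment and 0 of 7 in endothelial-like cells, with medians of -0.06 (thick ascending limb), 0.11 (distal convoluted tubule) and -0.01 (endothelial). Of the receptor feedback inhibitors, such as Errfi1 and the Sprouty genes, 0 of 8, 0 of 8 and 0 of 9 were past the fold in thick ascending limb-like, distal convoluted tubule-like and endothelial-like cells, with medians of -0.14, -0.07 and 0.03. For the RAS-ERK relay it was 0 of 16 in each, with medians of 0.09, 0.02 and -0.07. The genes that respond to ERK, such as Dusp6, had 0 of 6, 0 of 7 and 0 of 4, with median log2 ratios of -0.01, 0.28 and -0.19 beside 0.06, 0.08 and 0.01 for all genes compared in the same cells.

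The transport genes of the distal tubule were read beside Egf in the same way. In distal convoluted tubule-like cells 5 of 14 were lower and past the fold, and the median log2 ratio was -0.68 beside 0.08 for all genes. They were Pvalb (152 and 21.0 CPM), Umod (1219 and 392 CPM), the thiazide-sensitive cotransporter gene Slc12a3 (2645 and 921 CPM), Slc8a1 (2723 and 1211 CPM) and Calb1 (970.2 and 479 CPM), control first. Slc12a3 and Pvalb are also markers that named the class, and Calb1 and Slc8a1 are markers of the connecting tubule. Within the Slc12a3-led cluster Slc12a3 was at 4988 and 5014 CPM and Pvalb at 418 and 426 CPM, while Egf was at 796 and 415 CPM. Slc12a3 and Pvalb are leading genes of that cluster, and the clustering could use them but not Egf. Their like levels there are thus partly set by how its cells were grouped and do not bear on Egf. The cluster had 202 control and 20 haplodeficient cells, with median mitochondrial shares of 25.1% and 16.2%. In thick ascending limb-like cells 0 of 11 transport genes were past the fold, with a median of 0.01 beside 0.06. In endothelial-like cells Slc12a1, Fxyd2 and Umod were past the fold among 5, all lower, and the median was -1.04. Dissociation stress genes were past the fold in 0 of 12 in each of the 3, and their summed level was 9343 and 11768 CPM in distal convoluted tubule-like and 9320 and 13058 CPM in thick ascending limb-like cells.

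For each member, the genes whose level ran most like its own were found by Pearson correlation of log2(CPM + 5) over 36 points, the 18 cell groups in both libraries, among 8661 genes. The points share 2 libraries and their depth, so the values are descriptions. Egf ran closest to Ppp1r1a (0.886), Cntn5 (0.880) and Esrrb (0.877), of which Ppp1r1a is a marker used for the thick ascending limb. Hbegf ran closest to Lama5 (0.920), Amotl2 (0.917) and Hoxb7 (0.913), and Areg to Kif21b (0.923), Runx3 (0.917) and Il21r (0.916), the last 2 known from lymphocytes. Tgfa ran closest to Mpped2 (0.904), Tspan15 (0.867) and Efna5 (0.862), and Btc to Cog7 (0.883), Mlph (0.883) and Trp53inp2 (0.855). Egfr ran closest to Bicc1 (0.944), Smim1 (0.933) and D630045J12Rik (0.929), and Erbb2 to Ank3 (0.944), Syne2 (0.937) and Ppp2r3a (0.934). Erbb3 had the highest values, with the epithelial keratin gene Krt8 (0.975), Itgb6 (0.970) and Grb7 (0.968), and Erbb4 ran closest to Dcdc2a (0.911), Shank2 (0.910) and 4930486I03Rik (0.900).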

How the data were processed

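Droplet-based 3′ single-cell libraries of dissociated injured kidneys were analysed, 1 per group. The deposited values are raw UMI counts that the authors obtained with Cell Ranger 4, per the file headers, on mm10, per the submitters' processing notes. The gene annotation is not given in the sources used here. Of 32285 gene identifiers, 32235 (99.8%) matched GENCODE M21, the source of coordinates. The libraries held 134190236 (control) and 114668145 (haplodeficient) UMIs.

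Cells had at least 500 UMIs, 200 genes and at most 50% mitochondrial UMIs, a limit that removed 574 control and 30 haplodeficient barcodes. The top Scrublet scores, at 0.8% per 1000 cells, were removed as likely doublets (715 and 804). Cells were clustered jointly (scanpy 1.11.5, scikit-learn 1.9.0, leidenalg 0.10.2, scipy 1.17.1) on 2000 variable genes, 30 components and 15 neighbours at resolution 1, giving 42 clusters. A name needed at least 3 markers detected in 10% of a cluster's cells at 2-fold or more, a scoring rule chosen with the data in view. The log2 ratio of CPM + 5 understates low genes. Intervals are exact Poisson for levels, conditional binomial for ratios and Clopper-Pearson for shares. Free RNA was read from barcodes of 1 to 100 UMIs. The rule for past the fold was tested on simulated Poisson counts drawn from the levels of distal convoluted tubule-like cells. Such counts hold no spread between cells, so that test covers counting error only.

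The members and lists were chosen with earlier results of these data known. Genes named beyond the members are listed pathway, transport and marker genes, and the 3 genes most like each member among those reaching 50 CPM in a cell group. Alternatives covered scaling, pseudocount, cell filters, doublets, clustering, naming, free RNA and weighting.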

Additional observations from a re-analysis of the deposited data

Results flagged for a closer look

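Erbb4 stood apart between cell groups in its direction between the libraries. Its log2 ratio, haplodeficient over control, was 1.76 in Fam181b-led cells but -1.18 in descending thin limb-like cells and -1.02 in intercalated-cell-like cells. The differences between these cell groups were not tested, and each library gives 1 value per cell group. In Fam181b-led cells 73 of the 112 haplodeficient UMIs lay in 1 cell.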

How the results depend on the processing

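No paired analysis was possible because each group has 1 library. The Egf log2 ratio in distal convoluted tubule-like cells, -2.71, was -2.12 with at most 25% mitochondrial UMIs, -2.49 with each library clustered on its own, -2.96 with each cell named alone, -3.51 with every cell weighted alike and -0.36 with subclusters weighted alike. Among alternatives chosen after seeing the data, it was -0.98 under 10% mitochondrial UMIs and -0.91 in the larger cluster alone, the Il1f6-led one. In thick ascending limb-like cells the Egf value of -1.81 was -1.87 with median-of-ratios scaling, -1.04 with at most 25% mitochondrial UMIs, -2.06 with at least 1000 UMIs, -1.93 at Leiden resolution 2, -2.51 with each library clustered on its own, -2.50 with every cell weighted alike and -1.16 with subclusters weighted alike. Of the added alternatives, it turned to 1.301 under 10% mitochondrial UMIs, and was -1.93 with mitochondrial UMIs left out. It was -1.20 in the larger cluster alone, the Gabrp-led one, where Egf was low, at 96.7 and 39.1 CPM, control first. In the Egf-led cluster the CPM ratio was 0.266. The other pairs past the fold, 6 with Egf in endothelial-like cells, numbered 10 with each cell named alone, 3 with every cell weighted alike and 3 with subclusters weighted alike. The first and last of these covered 13 and 14 cell groups in place of 18, so their set of groups changed too. Over all genes and cell groups, 2891 of 150121 compared pairs were past the fold. With a minimum of 50 CPM 1220 were, but that minimum also left fewer pairs to compare, a number not given here. The causes were not tested. Low UMI counts limit Areg outside leukocytes and Egf outside the distal segments.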
